A study of Mus musculus with 6 samples.

Results

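Complement is the set of plasma and tissue proteins that tags surfaces for clearance and can pierce membranes. The 9 genes described here were chosen by name from the arrays' own annotation, with earlier results of these data known. They cover components and regulators of complement: C3, C4b, C2, Cfb, C1ra, C1s, Serping1, Cd55 and Masp1. They were represented by 13 probes, out of 36499 gene names and 55681 probes on the array. Messenger RNA was measured with 1-colour Agilent arrays in myoblasts, the cells from which muscle fibres form, which had been isolated by cell sorting from skeletal muscle of male C57BL/6 mice aged 3 months. Both groups were grown in DMEM with 20% fetal bovine serum, and the cells of 1 group received TGFb, a growth factor that drives fibrosis, for 4 days while those of the other were left untreated. There were 3 arrays per group, described by the submitters as independent experiments. The sources used here give neither the dose or isoform of TGFb nor how many animals each culture came from.

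The complement cascade can be started by the classical pathway, in which the C1 complex binds to antibody or damaged cells and its proteases C1r and C1s cut C4 and C2, or by the lectin pathway, in which Masp proteases do the same on bound sugars. The resulting enzymes cut C3, the central component, whose fragment becomes fixed to surfaces; factor B (Cfb) then amplifies that deposit through the alternative pathway. Serping1 (C1 inhibitor) blocks C1r, C1s and the Masps, and Cd55 takes the C3-cutting enzymes apart on the cell's own membrane. Most circulating complement is made by the liver, but many tissue cells, fibroblasts and muscle cells among them, can make some of the proteins.

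One of the C3 probes carried the clearest difference among the 13. By the probe present in 10 spots on each array, C3 signal rose 5.68-fold with TGFb. This change passed the test both with and without scan day in the fit. Without scan day, the call was lost when most single arrays were left out. The size also depended on processing: with group only, the log2 change of 2.51 was 1.63 under another background correction. In the authors' deposited normalized values it was 1.18 with group only and did not pass (limma adjusted p = 0.0907). By the other C3 probe, present as a single spot, no difference passed the test. Serping1 fell 2.78-fold on its probe that was detected on all arrays once scan day was included in the fit, and did not pass without that term. Its second probe also passed only with scan day, but was detected on 1 of 3 TGFb arrays. No test was passed by C4b, C2, C1ra, C1s, Masp1 or Cd55 in either of these fits, and Cfb was not well above background on any of the 6 arrays.

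The sequences of the probes on which these statements rest are shown so that their targets can be told apart. The array's coordinates refer to mm9, and no genome annotation of that build was used here, so exons and UTRs were not assigned. Both C3 probes match the minus strand of chromosome 17 and their starts are 262 bases apart. The probe spotted 10 times lies at chr17:57343416-57343475 and the single-spot probe at chr17:57343678-57343737, so on this strand the former is nearer the 3′ end. One Serping1 probe, 60 bases long, is assigned to an interval of 1507 bases at chr2:84605968-84607474 on the minus strand, which means that the bases it matches are not contiguous in the genome; it is called the junction probe. The other Serping1 probe lies at chr2:84605663-84605722, nearer the 3′ end, and only its first 30 bases are given. All are written 5′ to 3′ with no base singled out.
C3, 10-spot probe: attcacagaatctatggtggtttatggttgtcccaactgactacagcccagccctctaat
C3, single-spot probe: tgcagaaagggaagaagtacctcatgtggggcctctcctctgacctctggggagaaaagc
Serping1, junction probe: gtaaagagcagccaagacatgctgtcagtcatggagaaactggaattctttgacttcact
Serping1, 3′ probe (first 30 bases): tgggtaaacattgtcacccaagcttcagct

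Levels below are log2 of the processed intensity minus the log2 of the same array's 75th percentile, so 0 is the 75th percentile itself. As a rule they are compared between arrays for 1 probe. Levels of different probes enter in the choice of a gene's brightest probe, in the marker sums and in differences between 2 probes of a gene. The 75th percentile lay between 876.0 and 1569.0 intensity units and 52.0% to 56.7% of spots were well above background. The arrays were scanned on 2 days, each with both groups. Day 1 held TGFb replicate 1 and untreated replicates 1 and 2, and day 2 held TGFb replicates 2 and 3 and untreated replicate 3. Scan day set the arrays apart along the first principal component, with 72.4% of the variance, and group along the second, with 16.3%. Changes of the members are therefore given from a fit with group only and from a fit that adds scan day as a covariate, called the day-adjusted fit. Untreated replicates 1 and 2 carry the same number in their file names and correlated at 0.996 across genes, so whether they are separate cultures is uncertain, and p-values measure only the spread between these arrays. The 6 arrays are few, which limits the precision of every value.

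Cell identity was checked with marker lists. Of 8 myoblast markers, 7 were detected on all 6 arrays, Pax7, Myod1 and Des among them, whereas Myf5 was so on 1 array at most. In the day-adjusted fit 1 of these 7 passed, beside 10.2% of all genes. This was Des, the muscle intermediate filament, which was lower after TGFb (-1.28, limma adjusted p = 0.0100), with groups that did not overlap. With group only the change of Des was -1.17 and did not pass (limma adjusted p = 0.1395). The median change of the 7 was -0.42 with group only and -0.51 day-adjusted. An unadjusted p under 0.05 was seen for 1 of them with group only, against 2535 of all 21865 genes. Day-adjusted, it was seen for 5 of them, against 5942 of all 21865 genes. Of 8 macrophage and leukocyte markers only Csf1r, Cd14 and Mrc1 could be tested, none of which passed, and Cd68 and Lyz2 were well above background on no array. The summed intensity of the tested macrophage markers, as log2 relative to the 75th percentile, ran from -0.54 to 0.22 in TGFb arrays and from -0.41 to 0.36 in untreated arrays. The corresponding ranges were 1.43 to 2.37 and 0.98 to 1.73 for the 4 of 7 fibroblast markers that could be tested, and -1.26 to 1.55 and -1.66 to 1.66 for 3 of 7 endothelial ones. Each sum came mostly from 1 probe, of Csf1r, Cd34 and Kdr in turn, so these ranges are not measures of cell content. With group only the fibroblast markers changed by 0.87 (Cd34), 0.34 (Pi16), -0.07 (Pdgfra) and -1.22 (Ly6a), none past the test. Day-adjusted, the changes were 0.58 (Cd34), 0.24 (Pi16), -0.32 (Pdgfra) and -0.69 (Ly6a), again none past the test. In that fit 2 of these 4 had an unadjusted p under 0.05, against 5942 of all 21865 genes. The Kdr probe in the sum followed scan day, and the 10-spot Kdr probe was well above background on no array. To a smaller extent the Csf1r and Cd34 probes also followed scan day. On day 2 the Csf1r probe was brighter by 0.84 after TGFb and 0.83 without it, and the Cd34 probe by 0.83 and 0.95. The part of these other cell types in the complement values was not tested. In such bulk cultures fewer expressing cells and less RNA per cell cannot be told apart.

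Of the 9 genes, 8 were tested, each by whichever of its probes was brightest on average across the 6 arrays, and 11 of the 13 probes were tested one by one. In the fit with group only, 0 of the 8 genes passed (limma, Benjamini-Hochberg over 21865 genes, threshold 0.05), beside 1.4% of all genes called (0.7% higher and 0.704% lower). An unadjusted p under 0.05 was seen for 1 of the 8 and for 2535 of all 21865 genes. In the day-adjusted fit 1 of 8 passed, Serping1, which was lower, beside 10.2% of all genes called (4.65% higher and 5.55% lower). There 3 of the 8 had an unadjusted p under 0.05, and so did 5942 of all 21865 genes. The groups did not overlap for 2 of the 8 genes, C4b above and Serping1 below, against 17.9% of all genes (8.43% above and 9.51% below). The median change of the 8 genes was 0.12 on the log2 scale, against 0.05 over all genes, and 0.26 against 0.04 in the day-adjusted fit. The gene values use the single-spot C3 probe, which had the higher mean of the 2 C3 probes. With every probe as a feature of its own, a choice made after the C3 probes were seen to differ, 1 of 11 probes passed with group only (higher, beside 1.03% of 30006 probes called, of which 0.517% were higher and 0.517% lower). The day-adjusted fit called 3 of 11, 1 higher and 2 lower, beside 8.46% of all probes (3.81% higher and 4.66% lower). Of the 2 lower probes, both of Serping1, 1 was detected on only 1 of 3 TGFb arrays. The groups did not overlap for 3 of 11 probes, against 17.4% of all probes (8.02% with TGFb above and 9.36% below).

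**Figure D1:**
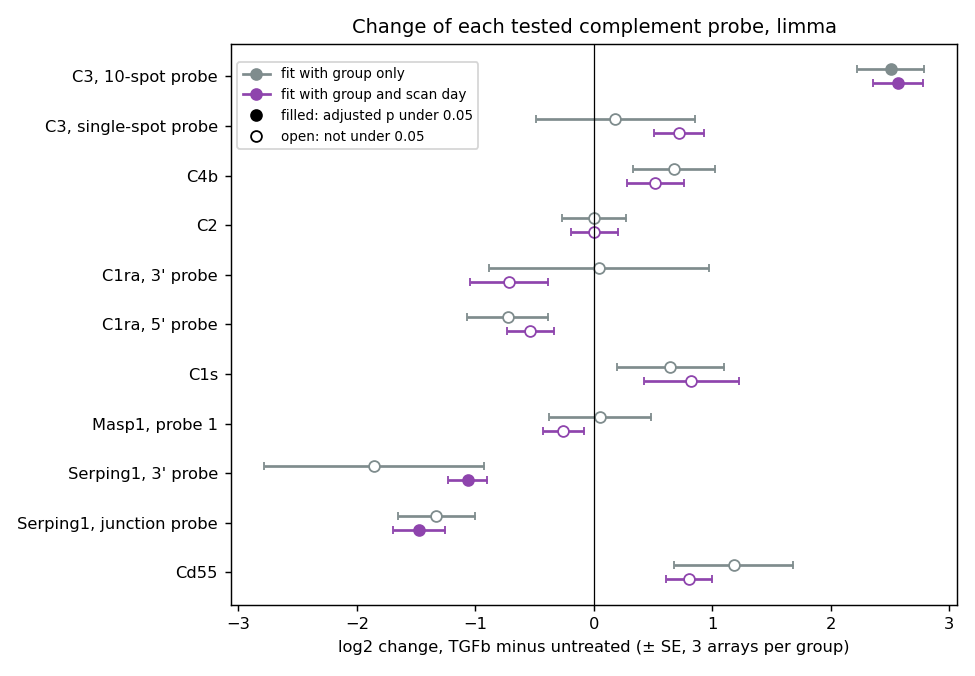
Change of each tested complement probe (log2, TGFb minus untreated, 3 arrays per group) from limma fits to every probe, with group only (grey) and day-adjusted (purple); bars are ± SE and filled circles have an adjusted p under 0.05. The 10-spot C3 probe lies at 2.51 and 2.57, apart from the single-spot C3 probe at 0.18 and 0.72, and both Serping1 probes lie below 0.

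C3 encodes the protein on which all activation routes converge. On the 10-spot probe its level was -1.85, -1.66 and -1.71 in TGFb replicates 1 to 3 and -4.08, -4.04 and -4.62 in untreated replicates 1 to 3. As linear intensity these values are 27.7%, 31.7% and 30.6% of the 75th percentile after TGFb and 5.91%, 6.10% and 4.07% without it. The groups did not overlap, and the gap between them was far wider than the spread within either. The change was 2.51 ± 0.28 (log2, SE, n = 3 per group; limma adjusted p = 0.0242 over all probes). The day-adjusted change was 2.57 ± 0.21 (limma adjusted p = 0.00437). The arrays of day 1 alone gave 2.21 and those of day 2 gave 2.94. On the 2 slides that held both groups it was 2.18 and 2.96. The probe was well above background on all 6 arrays.

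The 10 spots of this probe on an array are technical copies and show how finely each array read it. Their SD ran from 0.08 to 0.15 on the TGFb arrays and from 0.20 to 0.25 on the dimmer untreated arrays, where 9 to 10 spots remained after outliers were dropped. The dimmest TGFb spot, at -2.02, was brighter than the brightest untreated spot, at -3.73.

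On the single-spot probe the C3 level was -1.71, -3.04 and -2.91 in TGFb replicates 1 to 3. It was -2.12, -2.04 and -4.05 in untreated replicates 1 to 3. The groups overlapped, and on both sides the day 2 arrays were lower than the day 1 arrays, the difference being -1.27 after TGFb and -1.98 without it. The change was 0.18 ± 0.67 (limma adjusted p = 0.931) and the day-adjusted change 0.72 ± 0.21 (limma adjusted p = 0.107 over probes). Day 1 alone gave 0.37 and day 2 gave 1.08. All 3 of these values that take account of scan day were positive, as on the 10-spot probe, but smaller.

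The disagreement between the C3 probes was examined directly. The 10-spot value minus the single-spot value was -0.14, 1.38 and 1.20 in the TGFb arrays and -1.96, -2.00 and -0.57 in the untreated arrays. These groups did not overlap, and their means differed by 2.32 (exact permutation test, two-sided, p = 0.1, the smallest that 3 against 3 arrays allow; 0.3 after adjustment over the 3 genes with 2 tested probes). On day 1 alone the difference was 1.84 and on day 2 it was 1.86. For C1ra the same comparison gave 0.77 over all arrays (exact p = 0.7), but 0.20 on day 1 and -0.56 on day 2. For Serping1 it gave 0.53 over all arrays (exact p = 1), but -0.38 on day 1 and -0.45 on day 2, so for these 2 genes the pooled value lay above both within-day values. Which C3 probe reads the transcript more faithfully was not tested, so the C3 rise is a statement about the 10-spot probe.

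**Figure D2:**
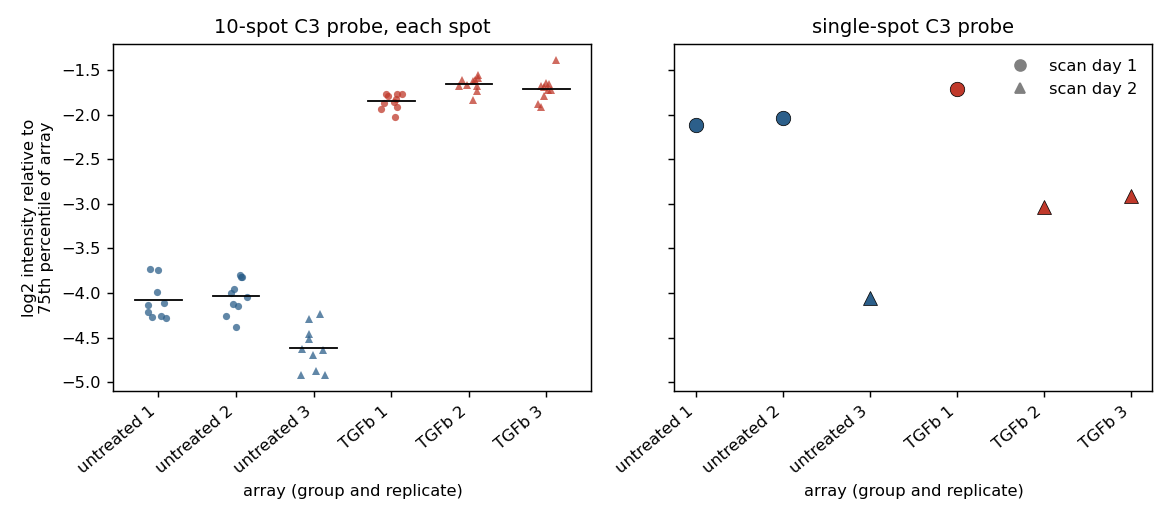
C3 on each array, by group and replicate: left, every spot of the 10-spot probe with the array mean as a line; right, the single-spot probe; the y axis is log2 intensity relative to the array's 75th percentile, circles are scan day 1 and triangles scan day 2, blue untreated and red TGFb. On the left all TGFb spots lie above -2.02 or at it and all untreated spots at or below -3.73, whereas on the right untreated replicates 1 and 2, at -2.12 and -2.04, lie above TGFb replicates 2 and 3.

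The call on the 10-spot probe was sensitive to the number of arrays when scan day was left out of the fit. Leaving out 1 array at a time kept the change between 2.32 and 2.61, but the adjusted p rose above 0.05 in 5 of 6 cases, up to 0.181, and stayed below it only without untreated replicate 3 (limma adjusted p = 0.0461). In the day-adjusted fit it stayed below 0.05 in 6 of 6 cases (0.0126 to 0.0452). With untreated replicates 1 and 2 counted as 1 sample the change was 2.60 (limma adjusted p = 0.165), and with scan day as well 2.62 (limma adjusted p = 0.0295). With the replicate number as a block it was 2.51 (limma adjusted p = 0.0652). In the authors' deposited normalized table the change was smaller, 1.18 with group only (limma adjusted p = 0.0907) and 1.54 with scan day (limma adjusted p = 0.00113).

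The C3 promoter is shown because C3, by its 10-spot probe only, was the one member that rose. RefSeq's promoter table (GRCm38.p6) held an entry for C3, C1ra, C1s1 (the current symbol of C1s) and Cd55. The 250 bases before the C3 start are at chr17:57228137-57228386 on the minus strand, with matches to an NF-kB motif (3 guanines, any 5 bases, then 2 cytosines) in capitals.
C3, 250 bases before the start: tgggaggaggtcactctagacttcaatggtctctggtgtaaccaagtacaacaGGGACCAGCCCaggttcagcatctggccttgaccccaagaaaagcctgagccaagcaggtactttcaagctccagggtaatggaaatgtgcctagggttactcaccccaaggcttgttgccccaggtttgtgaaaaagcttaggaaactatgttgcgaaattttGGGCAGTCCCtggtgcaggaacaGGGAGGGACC
Both strands were searched, and 4 matches were found, starting 197, 196, 33 and 10 bases before the start, of which the first pair overlap. This short motif was present in 45.8% of the 32851 promoter windows of the same length, and Cd55 also had 4 matches. TTCNNNGAA (STAT), the interferon response element (a guanine and 3 adenines, repeated after any 2 bases), CAGACA and GTCTAGAC (both SMAD) were not found in the windows of C3, C1ra, C1s1 or Cd55, against 7.0%, 3.0%, 17.1% and 0.2% of all windows. A match is a stretch of letters and was not tied to any measurement here.

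C4b encodes complement C4, which the classical and lectin proteases cut to seed the C3-cutting enzyme. Its probe (chr17:34865328-34865387) lists transcripts of both C4b and its near-copy C4a, so the signal cannot be assigned to either alone. The level was -4.62, -3.82 and -4.55 in TGFb replicates 1 to 3 and -5.12, -5.24 and -4.66 in untreated replicates 1 to 3. All TGFb arrays were above all untreated arrays, but TGFb replicate 1 and untreated replicate 3 were nearly level (-4.62 against -4.66). The probe was well above background on all 6 arrays, with intensities between 2.64% and 7.07% of the 75th percentile. The change was 0.68 ± 0.34 (limma adjusted p = 0.545 over genes), day-adjusted 0.52 ± 0.24 (limma adjusted p = 0.234). With normexp background and group only the change was 0.28 (limma adjusted p = 0.7075 over genes). In the authors' deposited table it was -0.14 with group only (limma adjusted p = 0.825 over genes) and 0.14 day-adjusted (limma adjusted p = 0.541 over probes). It passed with slide as a random block (0.72, limma adjusted p = 0.0170) and, in the day-adjusted fit, when TGFb replicate 3 was left out (limma adjusted p = 0.0466).

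C2, the protease that pairs with C4, was nearly level. It read -2.73, -2.85 and -2.35 after TGFb and -2.63, -2.57 and -2.74 without it (chr17:34999575-34999634). The ranges overlapped and the difference was 0.00 ± 0.26 (limma adjusted p = 0.997), day-adjusted 0.00 ± 0.19 (limma adjusted p = 0.992). Its relative in the alternative pathway, Cfb, had 1 probe, assigned to chr17:34993502-34993858, which starts 6.1 kb from the C2 probe in a region where RefSeq lists Cfb and C2 side by side. That probe was not well above background on any of the 6 arrays, with intensities between 0.42% and 0.64% of the 75th percentile, and no change is given. C4b lies on the same chromosome, with its probe 134.2 kb from that of C2.

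C1ra and C1s encode the proteases of the C1 complex. They are neighbours on chromosome 6, with probes 7.7 kb apart, in a row of similar genes that RefSeq orders as C1rl, C1ra, C1s1, C1rb and C1s2. Reads of such near-copies on an array cannot be fully separated, and cross-hybridisation was not tested. The C1ra probe at chr6:124473052-124473111, nearer the 3′ end, read -2.97, -0.55 and -1.49 in TGFb replicates 1 to 3 and -2.43, -2.75 and 0.02 in untreated replicates 1 to 3. These values followed scan day: the day 2 arrays were brighter by 1.95 after TGFb and by 2.61 without it. The change was 0.05 ± 0.93 (limma adjusted p = 0.988 over probes) and day-adjusted -0.71 ± 0.33 (limma adjusted p = 0.250), so the sign turned between the fits.

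The second C1ra probe, 378 bases upstream at chr6:124472674-124472733, moved the other way with scan day. It read -3.04, -3.31 and -3.82 after TGFb and -2.45, -2.45 and -3.08 without it, and the groups overlapped only in that untreated replicate 3 lay just below TGFb replicate 1. The change was -0.73 ± 0.34 (limma adjusted p = 0.529) and day-adjusted -0.54 ± 0.20 (limma adjusted p = 0.168). Within each scan day both C1ra probes were lower after TGFb, with differences of -0.38 and -0.59 on day 1 and -1.04 and -0.49 on day 2, none of it past the test.

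C1s read -4.40, -5.28 and -4.01 after TGFb and -4.71, -5.16 and -5.75 without it (chr6:124480775-124480834). The groups overlapped, and the probe was well above background on 2 of 3 arrays in each, so its values are close to the detection limit. The change was 0.65 ± 0.45 (limma adjusted p = 0.691) and day-adjusted 0.82 ± 0.40 (limma adjusted p = 0.273). In the authors' deposited table it was -0.07 with group only and 0.17 day-adjusted.

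Masp1 encodes a protease of the lectin pathway. The tested probe (chr16:23449609-23449668) read -3.78, -2.69 and -2.60 after TGFb and -3.24, -3.38 and -2.60 without it, with overlapping groups and the day 2 arrays brighter. The change was 0.05 ± 0.43 (limma adjusted p = 0.972) and day-adjusted -0.26 ± 0.17 (limma adjusted p = 0.411). The accession of this probe is not in the RefSeq table used; a second Masp1 probe (chr16:23452460-23452519), whose accession is, was well above background on 1 of 3 arrays in each group and was not tested.

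**Figure D3:**
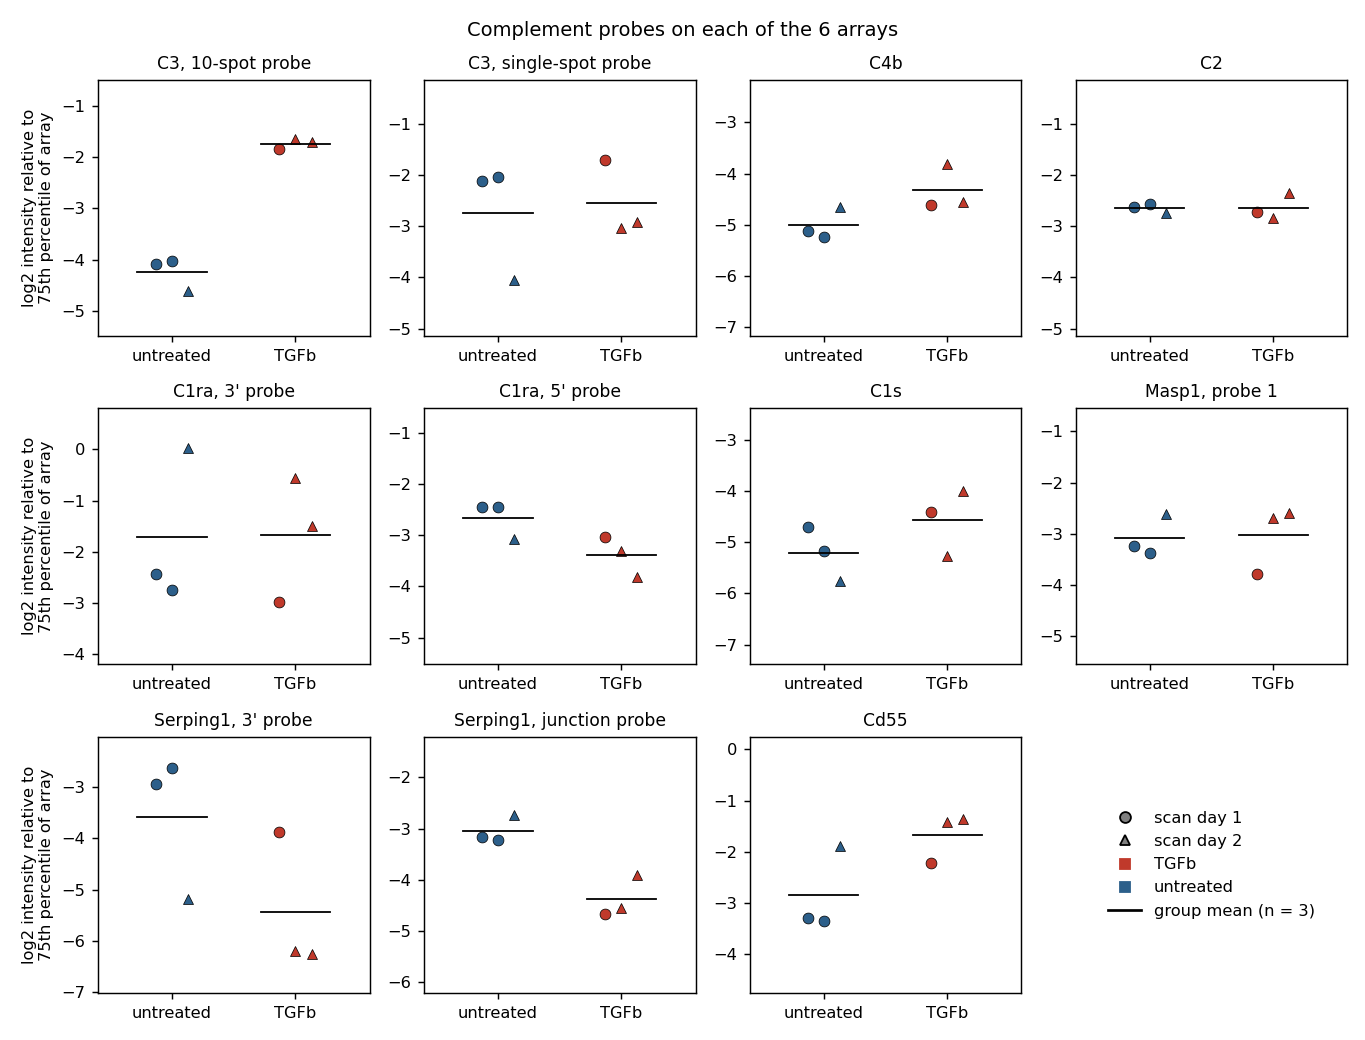
Level of the 11 tested complement probes on each of the 6 arrays, as log2 intensity relative to the array's 75th percentile; circles are scan day 1, triangles scan day 2, blue untreated, red TGFb, and lines are group means (n = 3). The 10-spot C3 probe, C4b and the Serping1 junction probe show groups that do not overlap. The C1ra 3′ probe, the single-spot C3 probe and the Serping1 3′ probe have the widest gaps between scan days within each group. Smaller gaps between scan days are seen in both groups for other probes, Cd55, Masp1, C4b and the Serping1 junction probe among them.

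Serping1 encodes C1 inhibitor, the serpin that shuts off C1r, C1s and the Masps. On the junction probe it read -4.66, -4.55 and -3.91 in TGFb replicates 1 to 3 and -3.17, -3.22 and -2.74 in untreated replicates 1 to 3. All TGFb arrays lay below all untreated arrays, the nearest pair being -3.91 against -3.22. The change was -1.33 ± 0.33 with group only (limma adjusted p = 0.175 over probes, 0.154 over genes). The day-adjusted change was -1.48 ± 0.22 (limma adjusted p = 0.0199 over probes, 0.0162 over genes). It was -1.47 on day 1 alone and -1.49 on day 2. The day 2 arrays were brighter by 0.43 after TGFb and by 0.45 without it.

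The Serping1 3′ probe read -3.88, -6.19 and -6.26 after TGFb and -2.94, -2.63 and -5.19 without it. It cleared the background limit on 3 of 3 untreated arrays but on 1 of 3 TGFb arrays, so the lowest values are near the detection limit. The groups overlapped, and the day 2 arrays were dimmer, with differences of -2.35 after TGFb and -2.40 without it, opposite to the junction probe. The change was -1.86 ± 0.93 with group only (limma adjusted p = 0.559) and -1.06 ± 0.16 after day adjustment (limma adjusted p = 0.0219). It was -1.09 on day 1 alone and -1.04 on day 2. Since this probe entered the test through the untreated arrays, its difference lends nothing to that of the junction probe.

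The Serping1 calls depended on single arrays and on the processing. In the day-adjusted fit, leaving out 1 array at a time kept the junction probe's change between -1.61 and -1.34. It passed without TGFb replicate 2 or TGFb replicate 3 and did not pass without TGFb replicate 1 or any 1 of the 3 untreated arrays (limma adjusted p up to 0.170). The 3′ probe, between -1.13 and -0.99, passed in the same 2 cases. Counting untreated replicates 1 and 2 as 1 sample ended both day-adjusted calls (limma adjusted p = 0.0934 for the junction probe and 0.0993 for the 3′ probe). In the authors' deposited table the junction probe's change was smaller, -0.86 with group only (limma adjusted p = 0.00744) and -0.81 day-adjusted (limma adjusted p = 0.0156). Normexp background gave it -0.67 (limma adjusted p = 0.299), day-adjusted -0.71 (limma adjusted p = 0.0307). For the 3′ probe the day-adjusted call was lost with normexp (-0.33, limma adjusted p = 0.315) and in the authors' table (-0.48, limma adjusted p = 0.0631), and slide as a random block did not call it either (-1.26, limma adjusted p = 0.0548).

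Cd55, decay-accelerating factor, protects a cell from its own complement. Its probe (chr1:132335716-132335775) read -2.22, -1.42 and -1.35 in TGFb replicates 1 to 3 and -3.29, -3.35 and -1.89 in untreated replicates 1 to 3. Untreated replicate 3 lay above TGFb replicate 1, so the groups overlapped, but within each scan day TGFb arrays were higher, by 1.10 on day 1 and 0.51 on day 2. The change was 1.18 ± 0.50 (limma adjusted p = 0.454 over genes). The day-adjusted change was 0.80 ± 0.19 and remained above the threshold (limma adjusted p = 0.0561). With slide as a random block it passed (0.87, limma adjusted p = 0.0426). RefSeq lists the similar gene Cd55b next to Cd55, and cross-hybridisation between them was not tested.

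The rest of the complement system was taken from a list of 51 further genes, of which 49 were found on the array by name and 24 could be tested. For 22 of the 49 no probe was well above background on any array, against 11204 of all 36499 gene names. With group only 0 of 24 passed (limma), beside 1.4% of all genes. In the day-adjusted fit 2 were higher and 2 lower, against 4.65% and 5.55% of all genes. An unadjusted p under 0.05 was seen for 4 of the 24 with group only, against 2535 of all 21865 genes. Day-adjusted, it was seen for 8 of the 24, against 5942 of all 21865 genes. The groups did not overlap for 7 of 24, against 17.9% of all genes, and the median change was 0.06.

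Among recognition and initiation genes 7 of 14 were tested and 1 passed in the day-adjusted fit. Colec10, a collectin that recognises sugars for the lectin pathway, read -4.24, -3.94 and -3.80 after TGFb and -2.51, -2.37 and -1.07 without it. The groups did not overlap. It fell by 2.30 ± 0.26 after day adjustment (limma adjusted p = 0.00755), and the change was -2.01 ± 0.45 with group only (limma adjusted p = 0.125). Of the chains of C1q, which binds the targets of the classical pathway, C1qa and C1qc were well above background on no array. C1qb was so on 1 TGFb and 2 untreated arrays, and its change of -1.79 ± 1.75, day-adjusted -0.39 ± 0.79, did not pass (limma adjusted p = 0.761 and 0.792). None of the lectins Mbl1, Mbl2, Fcna and Fcnb was well above background on any array either.

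In the terminal pathway, whose products form the membrane pore, 1 of 7 genes could be tested, C8g, and it did not pass. Hc (C5), C6, C8a, C8b and C9 were well above background on no array, and C7 on 1. The amplification genes Cfd and Cfp were tested, and neither passed.

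Of the soluble regulators 3 of 10 were tested. Clu, clusterin, which binds the forming membrane attack complex, read -1.99, -2.20 and -2.42 after TGFb and -3.50, -3.78 and -5.07 without it. All TGFb arrays were above all untreated arrays. Clu rose by 2.20 ± 0.29 after day adjustment (limma adjusted p = 0.0119), and the change was 1.91 ± 0.46 with group only (limma adjusted p = 0.156).

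Of the membrane regulators 5 of 7 were tested. Susd4, a membrane protein with complement control domains, read -1.83, -1.27 and -1.29 after TGFb and -0.38, -0.24 and -0.51 without it, with no overlap. It fell by 1.14 ± 0.21 after day adjustment (limma adjusted p = 0.0319), and the change was -1.08 ± 0.28 with group only (limma adjusted p = 0.185). Cd59a and Cd59b, which block pore formation, were detected on all 6 arrays and differed by -0.01 and -0.19 after day adjustment, not past the test.

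Of the receptors 6 of 10 were tested. Cd93, a membrane lectin first described as a C1q receptor, read -3.02, -3.47 and -3.56 after TGFb and -4.34, -4.40 and -4.77 without it. The groups did not overlap. Cd93 rose by 1.30 ± 0.14 after day adjustment (limma adjusted p = 0.0064), and the change was 1.15 ± 0.29 with group only (limma adjusted p = 0.168). The receptors for the fragments of C3 and C5 gave no change past the test: C5ar2 differed by 0.53 after day adjustment, C5ar1 was well above background on no array and C3ar1 on 1. Leaving out 1 array at a time in the day-adjusted fit, the number of these 24 genes past the threshold ran from 0, without untreated replicate 3, to 5, without TGFb replicate 3.

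**Figure D4:**
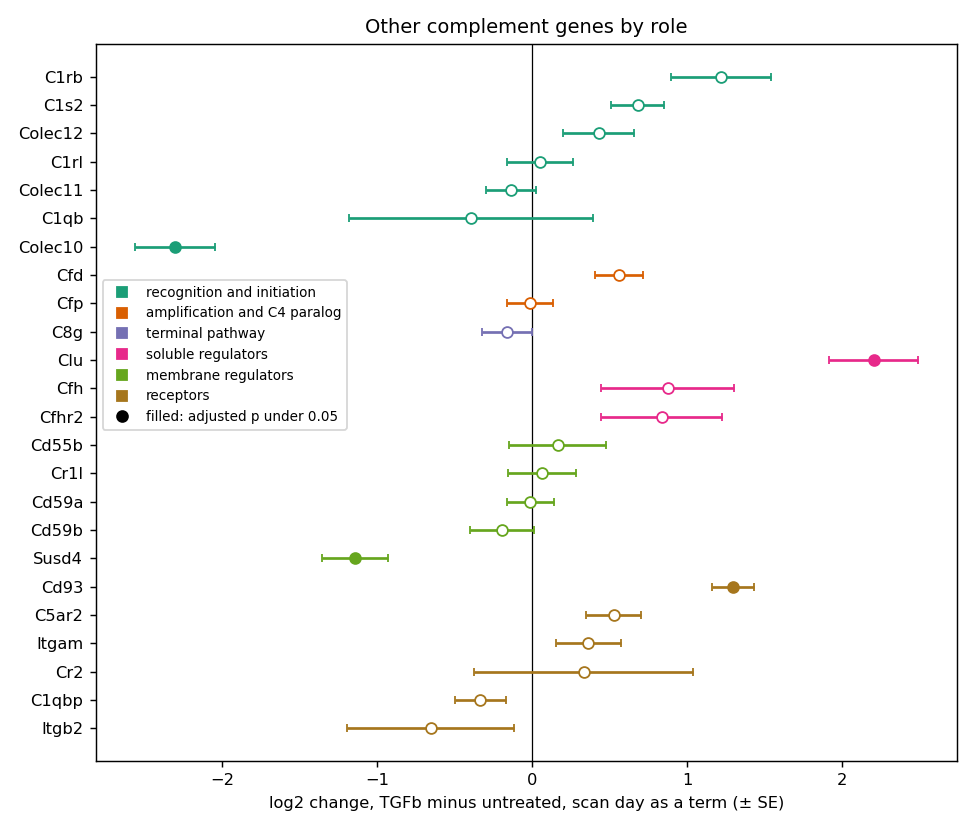
Change of the 24 other complement genes that could be tested (log2, TGFb minus untreated, limma, day-adjusted, bars ± SE), coloured by role; filled circles have an adjusted p under 0.05. Clu and Cd93 lie above 0 and Colec10 and Susd4 below; the other 20 do not pass.

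The genes whose profiles over the 6 arrays were most like that of C3 depended on the probe. By Pearson correlation among 12483 genes detected on all 6 arrays, without complement genes and clone or predicted names, the single-spot probe was closest to Retreg1 (r = 0.999), Utp14a (0.996) and Top3a (0.995), whose own changes with group only were 0.10, 0.07 and 0.04. The 10-spot probe, looked up afterwards, was closest to Syt5 (r = 0.998), Fbln2 (0.997) and Adcyap1r1 (0.997), whose changes were 2.29, 2.60 and 3.42. With 6 arrays that share scan days and groups such values are a description of these arrays only.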

How the data were processed

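The authors deposited scanner output for every array, with spot intensity already background-subtracted and detrended within the array, per the file headers, and 1 table of normalized log2 values made by a method that the sources used here do not give. That table's columns had medians of 7.11 to 7.12 and correlated at 0.992 to 0.993 with the log2 signal of their own array, so it is on a log2 scale and not centred on genes; it served as an alternative.

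Control and outlier spots (176 to 365 per array) were left out, the 75th percentile of each array was subtracted on the log2 scale, and spots of a probe were averaged. A probe was tested when well above background on at least 3 of 6 arrays, and a gene was its brightest tested probe on average across arrays. Genes lacking a value on any array were dropped. Names were those of the array, updated by accession through RefSeq for 26300 of 55681 probes (2839 names changed). The test was limma's (3.58.1, R 4.3.3) with lmFit, eBayes, Benjamini-Hochberg adjustment over all genes and a threshold of 0.05, and the fits were tested on simulated data. Probe pairs were compared with an exact permutation test. Alternatives were scan day, slide, replicate block, quantile normalization, normexp background (offset 50), the filter on dim probes, the authors' table, outlier spots, the mean of probes, untreated replicates 1 and 2 as 1 sample, and each array left out; fitting every probe was added after the data were seen.

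The members and lists were chosen with earlier results of these data known. Named genes were all 9 members, every listed complement gene past the threshold in either fit, the 3 genes most correlated with C3 (by its brighter probe, leaving out clone and predicted names), and markers needed to describe a list; the other complement genes named, and the genes most like the 10-spot C3 probe, were chosen after their values were seen.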

Additional observations from a re-analysis of the deposited data

How the results depend on the processing

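The count of genes past the threshold over the whole array (307 with group only) depended strongly on the fit: it was 2231 with scan day as a term, 4283 with slide as a random block (correlation within slides 0.88), 3252 in the authors' deposited table, 2 with the replicate block and 0 with untreated replicates 1 and 2 as 1 sample. Leaving out 1 array at a time gave 0 to 208, and 330 to 3355 with scan day as a term (662, 1770 and 3355 without TGFb replicate 1, 2 or 3 and 690, 627 and 330 without untreated replicate 1, 2 or 3). Same-numbered arrays deviated from their group means with correlations of 0.807, -0.716 and 0.691. These signs followed scan day, which both arrays shared in replicates 1 and 3 but not in replicate 2. Whether the numbers pair the arrays therefore cannot be told from them. The replicate block called 0 of the complement members. The count of members past the threshold (0 of 8 with group only) was 1 with scan day as a term, 1 in the authors' table, 3 with slide as a random block, 1 with every probe as a feature and 3 with every probe and scan day; leaving out 1 array gave 0, and 0 to 2 with scan day. The count of other complement genes (0 of 24) was 4 with scan day, 4 in the authors' table and 8 with slide as a random block; leaving out 1 array gave 0, and 0 to 5 with scan day. The members' median change stayed between -0.16, in the authors' table, and 0.50, without TGFb replicate 1. Normexp background lowered the change of the 10-spot C3 probe to 1.63 (limma adjusted p = 0.0412), and quantile normalization left it at 2.46 (0.0143). No member's change that passed the threshold under any of these settings had the opposite sign in the fit with group only. The causes were not tested. Dim probes (Cfb, C1s, the Serping1 3′ probe) limit what could be compared.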
